A study of Daphnia magna with 230 samples.

Results

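The comparison set late summer stormwater against early summer stormwater in neonates of the water flea *Daphnia magna*, over 94 of the 230 RNA libraries of the series. All stormwater libraries labelled with either season were taken at all 9 sampling points, 50 from late summer and 44 from early summer. Laboratory controls were left out of the comparison, as was 1 library whose title and library code disagree on the season. The waters came from Minnesota stormwater works: the inflow and the outfall of an iron-enhanced sand filter at each of the sites 37ST, TBNS1 and TBNS2, and untreated pipe outflows at Cedar Lake, Crystal Lake and SAP. Inflow water had not passed the filter and outfall water had.

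Every group held laboratory-reared neonates less than a day old, of one commercial source, kept for 96 h in the water of 1 sampling point collected in late summer or in early summer. All libraries used, controls included, are labelled with 0 ng/L of pyriproxyfen, a juvenile hormone analog that other libraries of the series received. A library was made from a pool of 5 neonates out of the 30 of a treatment. Each point had 5 libraries in each season, except that late summer SAP water had 10, in 2 sets of 5, and early summer 37ST inflow water had 4. The late summer laboratory controls numbered 10, also in 2 sets, and the early summer controls 5. Controls were kept in laboratory water and carry season labels only. Libraries of one point and season share 1 water and 1 exposure (for the 2 late summer SAP sets the labels do not say), so p-values over libraries measure the spread between pools of animals and not between storms. The study places the exposures in January for the waters of every season and library numbers run in blocks by season, so the season of collection, the exposure run and the library set cannot be told apart. No transcript checks the season label itself.

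*Daphnia* grow by shedding their cuticle, a layer of chitin fibers and cuticle proteins, and replace it several times in the first days of life. Cuticle proteins, chitinases and the hormones around each molt are made in pulses over the molt cycle, and the gut epithelium secretes the proteases and amylases that digest algae and bacteria filtered from the water. Globin level, detoxifying enzymes and membrane transporters are further systems by which daphnids are known to respond to oxygen and to waterborne chemicals. Molt stage and gut filling of the pools are not given in the sources used here. In whole-animal RNA, fewer cells of a type and less RNA per cell cannot be told apart.

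Levels are given in CPM, the estimated count of a transcript scaled by the total count of its library. Library totals lay between 7252524 and 12708464 counts in late summer and between 9745377 and 14182253 in early summer. A floor of 3 counts was 0.236 to 0.414 CPM in late summer libraries and 0.212 to 0.308 CPM in early summer libraries, and such floors cover counting error only. A differentially expressed gene (DEG), here a reference transcript, had an adjusted p-value under 0.05 in the edgeR quasi-likelihood test (Benjamini-Hochberg) and an absolute log2 fold change, late minus early summer, over 2, with the sampling point as covariate. A DEG was counted as seen at a point where the fold change at that point alone had the same sign and an absolute log2 value over 1, and as seen at most points where this held at 7 or more of 9.

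Transcripts were called in both directions, and which direction held more depended on the libraries used. Of 26168 transcripts tested, 396 (1.51%) were DEGs, with 211 (0.806%) higher and 185 (0.707%) lower in late summer. At any fold, 6484 (24.8%) passed the test higher and 5204 (19.9%) lower, or 44.7% in either direction, beside a median log2 fold change over all transcripts of 0.05. Seen at most points were 0.913% of the transcripts tested, 0.608% higher and 80 transcripts (0.306%) lower. These are the higher set and the lower set in what follows. The higher set was made of 83 transcripts seen at 7 points, 63 at 8 and 13 at all 9. In the higher set 32 transcripts averaged under 1 CPM in these libraries, against 49 of the 80 in the lower set, so most of the lower set lay near the counting floor. The lower set was seen at 7 points in 44 cases, at 8 in 20 and at 9 in 16. Just outside, at 6 points, were 36 higher and 66 lower DEGs. The lower DEGs outnumbered the higher ones, with 556 against 258, under a replicate block, with 352 against 212 without replicate 4 and with 385 against 214 without replicate 5, where 269 lower ones (1.03%) and 0.573% higher ones were seen at most points. In no transcript of either set did all late summer libraries lie on one side of all early summer libraries.

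The size of the difference varied greatly from point to point. The number of DEGs at a single point was highest at TBNS1, with 1264 higher and 162 lower at the inflow (5.45% of those tested) and 848 higher and 414 lower at the outfall (4.82%). Cedar Lake had 319 higher and 267 lower (2.24%), and TBNS2 outfall 465 and 88 (2.11%). The other points had few. SAP had 25 higher and 89 lower (0.436%), TBNS2 inflow 46 and 0 (0.176%), 37ST outfall 17 and 12 (0.111%), Crystal Lake 19 and 3 (0.0841%), and 37ST inflow 2 and 0 (0.00764%). Each point compares about 5 pools with 5, and these counts moved strongly when 1 replicate number was left out of both seasons, at Cedar Lake between 97 and 409 in all.

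**Figure D1:**
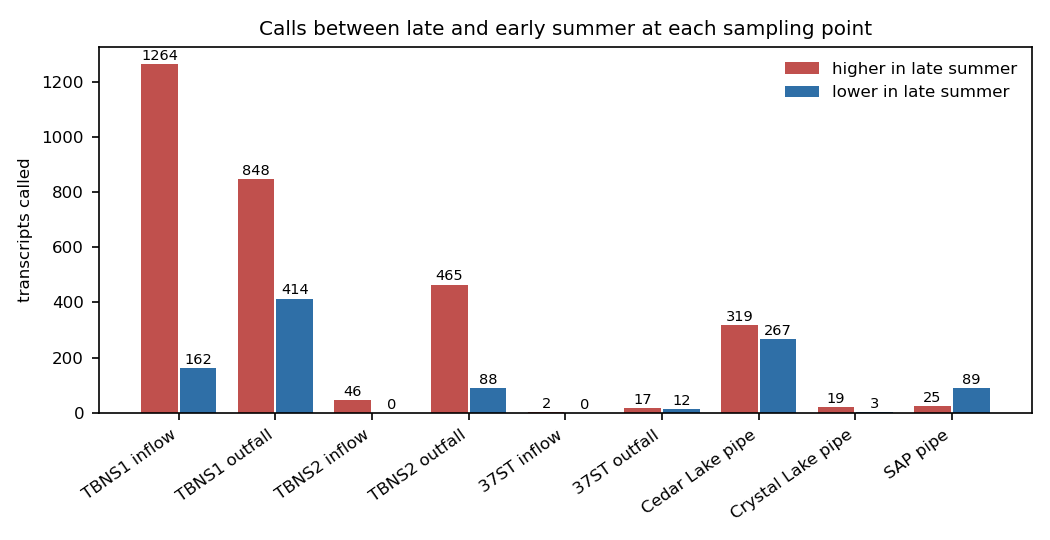
Number of transcripts called at each sampling point (vertical axis), with bars for those higher and those lower in late summer stormwater. TBNS1 inflow has the tallest bar, with 1264 transcripts higher, and 37ST inflow the fewest, with 2 higher and 0 lower.

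The transcripts of the higher set stood low in most early summer libraries, most of all at TBNS1 inflow and Cedar Lake. Their mean log2(CPM + 1) per library had a lowest value of 0.673, a median of 3.76 and a highest of 4.6 in late summer, against 0.538, 1.57 and 3.64 in early summer libraries. These levels describe the set, since the same libraries chose it. At Cedar Lake the late summer libraries ran from 2.05 to 4.34 and the early summer libraries from 0.549 to 0.836, and at TBNS1 inflow the late summer libraries ran from 1.61 to 4.58 and the early summer libraries from 0.538 to 1.16, with no overlap at either point. At Crystal Lake they overlapped, at 0.673 to 4.23 in late summer and 1.48 to 3.46 in early summer. The median log2 fold change of the set was 5.37 at Cedar Lake, 4.82 at TBNS1 inflow and 1.18 at Crystal Lake. Single pools of one late summer water thus spanned almost the whole range of the early summer pools.

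The 80 lower transcripts behaved more evenly. Their mean log2(CPM + 1) was 0.234, 0.584 and 1.51 (lowest, median, highest) in late summer libraries and 0.779, 1.54 and 2.26 in early summer libraries, and their median fold change ran only from -1.90 at 37ST inflow to -3.51 at 37ST outfall. At 37ST outfall the late summer libraries lay at 0.325 to 0.886 and the early summer ones at 1.14 to 1.69, without overlap.

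**Figure D2:**
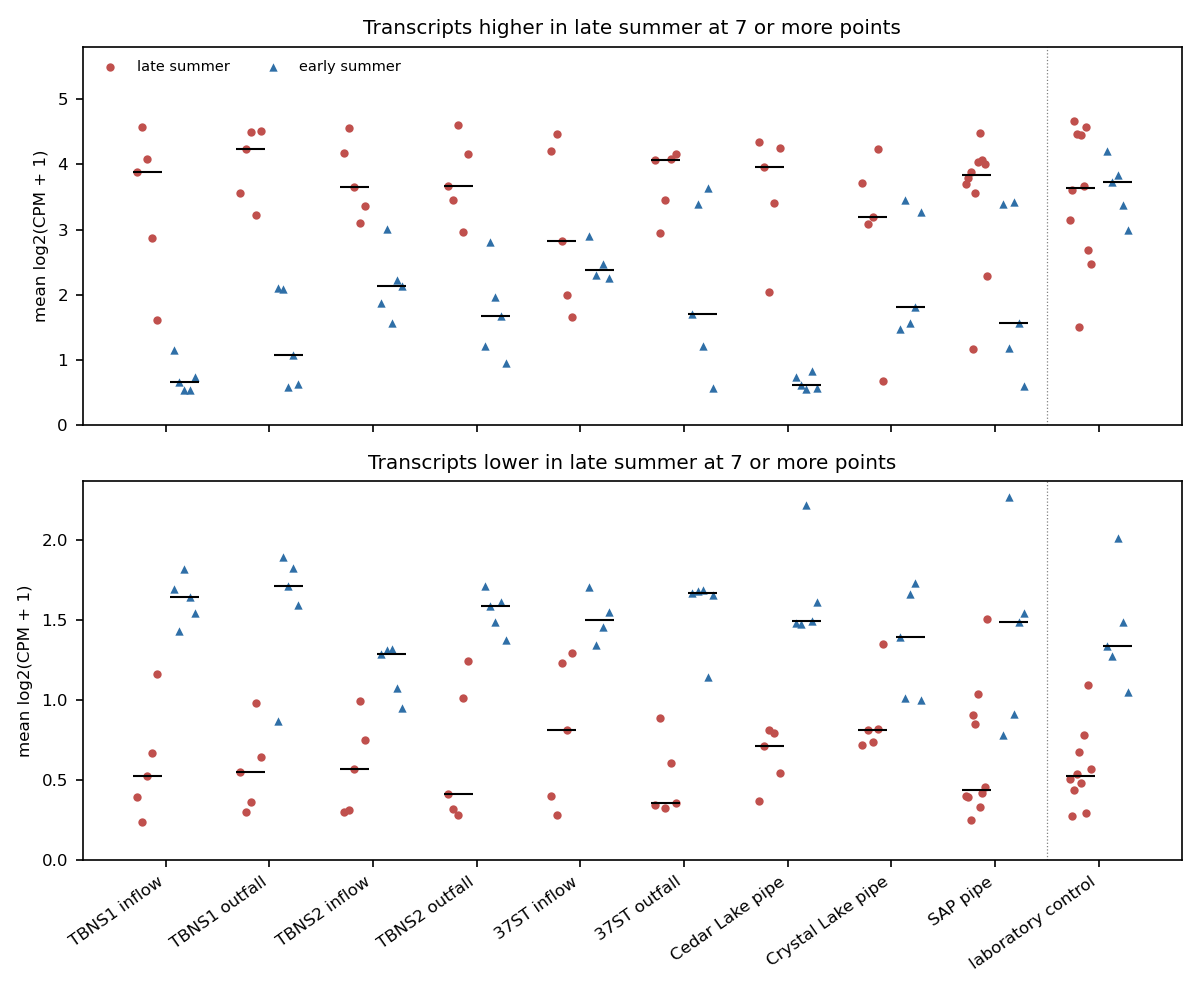
Mean log2(CPM + 1) per library (vertical axis) of the transcripts higher (upper panel) and the 80 lower (lower panel) in late summer at 7 or more points, by sampling point, with late summer left of early summer and black lines at medians. The laboratory controls at the far right did not choose the sets, and there the late and early summer medians of the higher set are 3.63 and 3.73.

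Cuticle proteins moved in both directions, and the higher ones were the ones seen at most points. Of 76 transcripts named as cuticle proteins, 8 were DEGs higher in late summer (10.5%) and 10 lower (13.2%), beside 0.806% and 0.707% of all transcripts. All 8 higher ones, but only 1 of the 10 lower ones, were seen at most points. At any fold 12 were higher and 31 lower, with a median log2 fold change of -0.945, where 24.8% of all transcripts were higher and 19.9% lower. Names come from the study's tables, which list transcripts selected on these same libraries, so that the share of a list is not independent evidence of its direction.

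Transcript Dapma7bEVm010402, an insect cuticle protein with a chitin-binding domain, had 1.90, 197 and 983 CPM (lowest, median, highest) in late summer libraries and 0.340, 14.2 and 320 CPM in early summer libraries. It rose by 2.80 on the log2 scale (SE 0.517, adjusted p = 5.16e-06, edgeR) and was higher at all 9 points. At Cedar Lake its late summer pools had 9.72, 145.7, 294, 744 and 850 CPM, against 0.823, 1.502, 1.70, 2.65 and 4.12 CPM in the early summer pools. The pools of late summer water differed among themselves by far more than those of early summer water there, and the groups did not overlap. At TBNS1 inflow they did, with 2.23, 45.2, 99.7, 291 and 549 CPM in late summer against 2.18, 2.31, 3.42, 3.63 and 3.73 CPM in early summer, where 1 late summer pool lay as low as the early summer ones.

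The next 3 cuticle transcripts of the higher group by fold change also changed most at TBNS1 inflow and Cedar Lake and least at Crystal Lake. Cuticular protein 27 precursor (Dapma7bEVm011304) reached 923 CPM in late summer and 311 CPM in early summer libraries, where its median was 3.00 CPM, and had a log2 fold change of 2.78 (SE 0.652, adjusted p = 0.000265), with 7.75 at TBNS1 inflow and 0.39 at Crystal Lake. The cuticular proteins Dapma7bEVm028497 and Dapma7bEVm016050 rose by 2.67 and 2.66, each with its smallest change at Crystal Lake (0.82 and 0.85). Among the lower cuticle proteins, Dapma7bEVm001276 had 0, 0.193 and 776 CPM in late summer and 0, 120.6 and 739 CPM in early summer libraries. Both groups spanned nearly the same range, and the difference lay in how many libraries were low. Its log2 fold change was -2.34 (SE 0.851, adjusted p = 0.0193), and the call was lost in 6 alternative fits, among them those without replicate 1, replicate 2, TBNS1 outfall or SAP.

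Among 10 endocrine and molting factors 1 was a DEG, a higher one (10%, beside 0.806% of all transcripts). This was eclosion hormone (Dapma7bEVm007374), a neuropeptide known in insects for starting the shedding of the old cuticle. It had 0, 6.42 and 69.7 CPM in late summer libraries, against 0, 1.11 and 26.0 CPM in early summer libraries, a rise of 2.11 on the log2 scale (SE 0.438, adjusted p = 4.04e-05). The groups overlapped widely, and at Crystal Lake the change was -0.81. Of 14 chitin enzymes none was a higher DEG and 1 was a lower one (7.14%, beside 0.707% of all transcripts). This was chitinase 5 precursor (Dapma7bEVm001857), an enzyme that degrades the old cuticle in insects. It fell by 2.30 (adjusted p = 0.0263, edgeR) and was seen at 6 points. Brain chitinase (Dapma7bEVm014956) had the lowest adjusted p of the list (1.26e-06) at a log2 fold change of 1.19, under the limit for a DEG.

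Both transcripts named Zormin rose. Zormin is a protein of the muscle Z-disc in *Drosophila*. Dapma7bEVm015019 had 1.03, 629 and 2152 CPM in late summer libraries and 0.703, 26.3 and 1015 CPM in early summer libraries, a log2 fold change of 2.67 (SE 0.559, adjusted p = 4.88e-05). At Cedar Lake the late summer pools had 49.8, 430, 538, 1348 and 1369 CPM and the early summer pools 0.969, 1.45, 1.72, 1.85 and 2.09 CPM. At 37ST inflow the order did not hold: late summer pools had 9.55, 41.8, 206, 943 and 1049 CPM, on both sides of the early summer pools with 146.8, 197, 296 and 427 CPM. The second transcript, Dapma7bEVm015018, had medians of 152.3 CPM in late summer and 6.52 CPM in early summer and rose by 2.45 (SE 0.665, adjusted p = 0.00162). When the counts were summed to 1 value per point and season, neither Zormin transcript passed (adjusted p = 0.0537 and 0.0946). Of 21 muscle, cytoskeleton and matrix transcripts, these 2 were the higher DEGs (9.52%, beside 0.806% of all transcripts). Cofilin-2 was the 1 lower DEG (4.76%, beside 0.707% of all transcripts). At any fold 6 of the list were higher and 6 lower, with a median of -0.106, beside 24.8% and 19.9% of all transcripts.

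**Figure D3:**
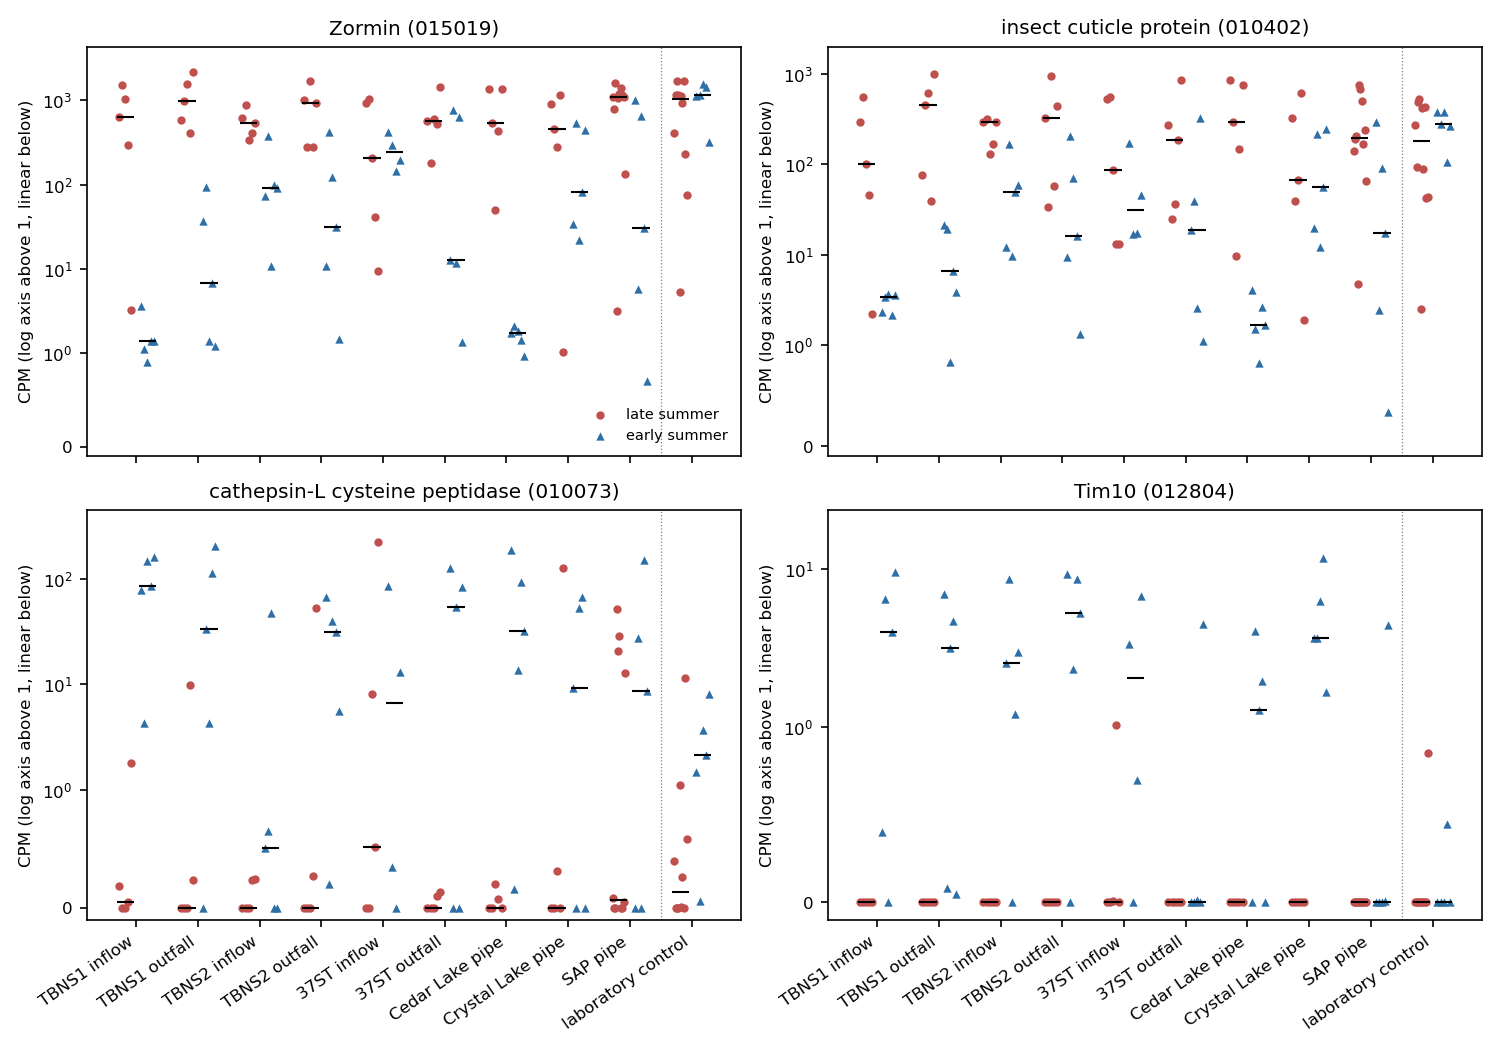
CPM per library (vertical axis, logarithmic above 1 and linear below) of Zormin, an insect cuticle protein, a cathepsin-L peptidase and Tim10 at each sampling point and in the laboratory controls, late summer left of early summer, with black lines at medians. Zormin and the cuticle protein are high in controls of both seasons, and Tim10 is at or near 0 in 49 of the 50 late summer stormwater libraries.

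Among 47 transcripts of xenobiotic metabolism, 5 were higher DEGs (10.6%) and 1 lower (2.13%), beside 0.806% and 0.707% of all transcripts. Of these DEGs, 4 higher ones and the 1 lower one were seen at most points. Cytochrome P450 305a1 (Dapma7bEVm007241), of a family of enzymes that oxidize foreign compounds and hormones, had 0.0960, 4.57 and 114.6 CPM in late summer libraries, against 0, 0.771 and 37.9 CPM in early summer libraries. It rose by 2.79 (SE 0.513, adjusted p = 4.55e-06), with a change of -0.47 at Crystal Lake and 4.83 at TBNS1 inflow. Most late summer libraries lay above most early summer ones, though the groups overlapped. In laboratory controls it changed by nearly as much, by 2.75 (adjusted p = 0.274, edgeR quasi-likelihood test). Its control medians were 5.00 CPM in late summer and 1.41 CPM in early summer, and the stormwater change minus the control change was 0.007.

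In the same list 3 ABC transporters of the G family, membrane pumps of lipids and other hydrophobic compounds, were higher DEGs. Dapma7bEVm027858 had 0.514, 62.2 and 179 CPM in late summer and 0, 3.6 and 147.8 CPM in early summer libraries, a rise of 2.75 (SE 0.442, adjusted p = 2.54e-07). Dapma7bEVm004062 had medians of 50.7 CPM in late summer and 3.75 CPM in early summer and a rise of 2.75 (SE 0.456). ATP-binding cassette sub-family G member 5 (Dapma7bEVm027855) had medians of 37.3 CPM in late summer and 2.62 CPM in early summer, rose by 2.33 (SE 0.495, adjusted p = 5.78e-05) and was seen at 6 points, just outside the higher set. Reads that match several transcripts were divided between them by the counting program, so the values of same-named transcripts are uncertain as separate values. A sulfotransferase (Dapma7bEVm011788), which adds sulfate groups to small molecules, had medians of 323 CPM in late summer and 33.3 CPM in early summer and rose by 2.02 (SE 0.460, adjusted p = 0.000172). Galactosylceramide sulfotransferase (Dapma7bEVm003290) was the lower DEG, with 0, 0.112 and 16.6 CPM in late summer libraries against 0, 2.80 and 26.2 CPM in early summer libraries and a log2 fold change of -2.41 (SE 0.563). At any fold 10 of the 47 were higher and 16 lower, beside 24.8% and 19.9% of all transcripts.

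Redox enzymes held 3 higher DEGs (10.3%) and 1 lower (3.45%) among 29 tested, beside 0.806% and 0.707% of all transcripts. At any fold 5 were higher and 14 lower, with a median of -0.533, beside 24.8% and 19.9% of all transcripts. The 3 higher DEGs were all named chorion peroxidase precursor, after an enzyme that hardens the egg shell in insects. Dapma7bEVm001757 had 0.106, 4.53 and 376 CPM in late summer libraries and 0, 0.677 and 19.8 CPM in early summer libraries. It rose by 3.68 (SE 0.527, adjusted p = 1.34e-08), was seen at all 9 points, and in 18 of 50 late summer libraries lay above every early summer library. At Crystal Lake, however, 3 of its 5 late summer pools (0.626, 0.789 and 0.848 CPM, beside 33.2 and 185 CPM) lay within the range of the early summer pools (0.343 to 6.61 CPM). Dapma7bEVm019165 had medians of 142.7 CPM in late summer and 19.5 CPM in early summer and rose by 2.24 (SE 0.307, adjusted p = 4.24e-09).

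Dual oxidase (Dapma7bEVm001260), which makes hydrogen peroxide at epithelia, was the lower redox DEG. It had 0, 4.12 and 127.2 CPM in late summer libraries and 3.42, 47.2 and 130 CPM in early summer libraries, and fell by 2.10 on the log2 scale (SE 0.446, adjusted p = 5.88e-05). At Cedar Lake the late summer pools had 0, 1.80, 5.60, 6.74 and 13.9 CPM, all below the early summer pools with 35.6, 75.9, 78.9, 99.8 and 113.5 CPM. At Crystal Lake, with a change of -0.24, the groups overlapped.

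Digestive hydrolases had no higher DEG and 4 lower among 38 (10.5%, beside 0.707% of all transcripts). Of the 4, 2 were seen at most points, both cathepsin-L cysteine peptidases. At any fold 4 were higher and 17 lower, beside 24.8% and 19.9% of all transcripts. Cathepsin L is a protease of lysosomes and, in crustaceans, of the digestive gland. Dapma7bEVm010073 was at 0 in 27 of 50 late summer and 10 of 44 early summer libraries. Its highest levels were alike, at 220 CPM in late summer and 203 CPM in early summer, and its medians were 1.61e-06 CPM in late summer and 20.5 CPM in early summer. At TBNS1 inflow late summer pools had 0, 0, 0.0519, 0.184 and 1.81 CPM, against 4.33, 77.1, 84.7, 146.5 and 158.03 CPM in early summer pools, while at 37ST inflow 1 late summer pool reached 220 CPM, above the 4 early summer pools. The log2 fold change was -4.28 (SE 1.04, adjusted p = 0.000418). The second, Dapma7bEVm023444, had 0, 1.08 and 91 CPM in late summer and 0, 12.7 and 93.7 CPM in early summer libraries and fell by 2.85 (SE 0.586, adjusted p = 3.55e-05). Its largest fall was at TBNS1 inflow (-5.71), and at 37ST inflow the change was 0.65. Alpha-amylase (Dapma7bEVm010555) and another cathepsin L (Dapma7bEVm000581) fell by 2.07 and 3.11 and were seen at 5 and 6 points.

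Of 52 transcripts of innate immunity, 5 (9.62%, beside 0.707% of all transcripts) were lower DEGs and none was higher, and none of the 5 was seen at most points. At any fold 9 were higher and 19 lower, beside 24.8% and 19.9% of all transcripts. The 5 lower DEGs were a serine protease inhibitor (Dapma7bEVm002420, -2.72), melanization protease 1 (Dapma7bEVm003644, -2.11), a C-type lectin (Dapma7bEVm007228, -2.18) and clip-domain serine proteases (Dapma7bEVm018467, -2.31, and Dapma7bEVm023202, -2.86), proteins that in insects act in melanization and in binding microbial sugars. The lowest adjusted p of the list belonged to a Spatzle-named transcript (Dapma7bEVm015228), in *Drosophila* the ligand of Toll. It had 6.99, 48.6 and 101.9 CPM in late summer libraries and 2.18, 13.9 and 52.6 CPM in early summer libraries, and rose by 1.42 (SE 0.211, adjusted p = 3.69e-08), which is under the limit for a DEG. In 20 of 50 late summer libraries it lay above every early summer library.

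Lipid metabolism had 2 higher (6.25%) and 3 lower DEGs (9.38%) among 32, beside 0.806% and 0.707% of all transcripts. At any fold 18 of the 32 passed the test lower and 4 higher, with a median of -1.26, beside 19.9% lower and 24.8% higher of all transcripts. Both higher DEGs were named elongation of very long chain fatty acids protein. Dapma7bEVm010982 had medians of 6.54 CPM in late summer and 0.624 CPM in early summer and rose by 2.28 (SE 0.428, adjusted p = 6.96e-06). Dapma7bEVm005730 stayed under 2.1 CPM in every stormwater library compared, with medians of 0.394 CPM in late summer and 0.0888 CPM in early summer, and rose by 2.06 (SE 0.328). Another elongase (Dapma7bEVm028574), with medians of 13.8 CPM in late summer and 315 CPM in early summer, fell by 2.07, as did sterol desaturase (Dapma7bEVm001588, -2.06) and apolipoprotein D (Dapma7bEVm007894, -2.44), a carrier of small lipids. These 3 were each seen at 6 points.

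Tim10 (Dapma7bEVm012804), a small chaperone that guides proteins through the space between the mitochondrial membranes, fell furthest of the transcripts seen at most points with a mean of at least 1 CPM. It was at 0 in 49 of 50 late summer libraries after rounding, the remaining library having 1.03 CPM. Of the 44 early summer libraries 15 were at 0, with a median of 2.15 CPM and a highest value of 11.8 CPM, and 26 lay above every late summer library. The fitted log2 fold change was -6.75 (SE 0.559, adjusted p = 9.58e-17). The fall was seen at all 9 points, from -3.77 at 37ST inflow to -8.98 at Crystal Lake. At Crystal Lake all 5 early summer pools had 1.66 to 11.8 CPM and all 5 late summer pools were at or near 0. Of the 18 mitochondrial transcripts, 1 other was a lower DEG, a NADH-ubiquinone oxidoreductase chain (Dapma7bEVm007403) whose fitted change of -9.38 (adjusted p = 0.0086) rested on 2 early summer libraries, the highest with 255 CPM. Lower DEGs were 11.1% of this list, beside 0.707% of all transcripts. Mitochondrial ATP synthase b chain (Dapma7bEVm010765) was the 1 higher DEG (5.56%, beside 0.806% of all transcripts). It rose by 2.04 (SE 0.553) and was seen at 6 points. At any fold 5 of the 18 were higher and 9 lower, beside 24.8% and 19.9% of all transcripts.

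The 3 transcripts of this set named after large-subunit ribosomal proteins were absent from every late summer library at this depth. L10a (Dapma7bEVm018232) had 0 counts in 50 late summer libraries and 38 counts in all in early summer, spread over 17 of 44 libraries, so that it was at least 13.3-fold lower against a floor of 3 counts over the group. L24 (Dapma7bEVm018316) had 36 early summer counts in 13 libraries and L17 (Dapma7bEVm018271) 30 counts in 13, at least 12.6-fold and 10.5-fold lower. These are a few reads per library in early summer. Cofilin-2 (Dapma7bEVm020617), an actin-severing protein, was similar: it was at 0 in 46 of 50 late summer libraries and 22 of 44 early summer libraries, with highest values of 0.106 CPM in late summer and 4.28 CPM in early summer and a fitted change of -3.51 (SE 0.401, adjusted p = 1.87e-11), seen at all 9 points. In all, 8 transcripts of the lower set were at 0 in every late summer library. Of 22 cytosolic ribosomal proteins, 4 were lower DEGs (18.2%, beside 0.707% of all transcripts) and none was higher. At any fold 1 was higher and 12 lower, beside 24.8% and 19.9% of all transcripts.

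Globin and heme transcripts held no DEG among 14, yet 11 passed the test lower at any fold, where 19.9% of all transcripts did, and none higher. Globins carry oxygen in the hemolymph of *Daphnia*. A globin (Dapma7bEVm020224) had 0, 0.5683 and 2.10 CPM in late summer libraries and 0.106, 1.83 and 5.38 CPM in early summer libraries, with a log2 fold change of -1.79 (SE 0.250, adjusted p = 7.64e-09), lower at all 9 points. Di-domain hemoglobin (Dapma7bEVm011064) had 0.406, 6.33 and 120 CPM in late summer and 0.649, 24.3 and 309 CPM in early summer libraries. Its change of -1.17 (SE 0.408, adjusted p = 0.0141) was largest at TBNS2 outfall (-4.22) and TBNS1 outfall (-3.45), with -2.39 at TBNS1 inflow and -1.40 at Crystal Lake. The adjusted p was 0.0971 without TBNS2 outfall, 0.0722 without either of the TBNS1 points, 0.0767 without replicate 5 and 0.121 with counts summed per point and season. It did not pass the exact test over the 9 points described further on (p = 0.102).

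Of 35 transposable elements 13 were higher and 2 lower at any fold, with a median of 0.63, beside 24.8% and 19.9% of all transcripts. A retrotransposon polyprotein (Dapma7bEVm015615) had 0.974, 112.9 and 294 CPM in late summer libraries and 0.209, 7.14 and 209 CPM in early summer libraries and rose by 2.58 (SE 0.385, adjusted p = 4.21e-08). A transcript with an integrase core domain (Dapma7bEVm020088) fell by 2.01 (SE 0.331) at levels under 1 CPM. None of 12 cell cycle and chromosome transcripts was a DEG: XRCC2 (Dapma7bEVm011371), a DNA repair protein, had 7.21 CPM in late summer and 8.80 CPM in early summer at the median and a change of -0.45 (adjusted p = 2e-10). None of 11 histone demethylases passed at any fold, the lowest adjusted p being 0.0835 for Dapma7bEVm009611, which passed under the replicate block (-0.42, adjusted p = 0.0321) and without TBNS2 outfall (adjusted p = 0.0466).

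The largest rises and falls mostly lacked a name. Dapma7bEVm011738 rose by 4.77 (SE 0.619, adjusted p = 8.24e-10), was above 0 in 33 of 50 late summer and 6 of 44 early summer libraries, and was seen at all 9 points. Dapma7bEVm007408, an uncharacterized protein, rose by 4.53 (SE 0.590) with 0, 1.56 and 54.6 CPM in late summer libraries, against 0, 0 and 2.99 CPM in early summer libraries, and in 18 late summer libraries lay above every early summer library. At higher level, the conserved protein Dapma7bEVm022448 had 0.617, 358 and 1236 CPM in late summer libraries and 0.0947, 10.3 and 426 CPM in early summer libraries, a rise of 3.04 (SE 0.529, adjusted p = 1.52e-06). At Cedar Lake its late summer pools had 12.6, 377, 466, 635 and 820 CPM, all above the early summer pools with 0.424, 0.467, 0.471, 1.86 and 4.24 CPM. The unnamed Dapma7bEVm011280 had medians of 253 CPM in late summer and 14.01 CPM in early summer. Among the falls, Dapma7bEVm019837 (-4.10, SE 0.430, adjusted p = 9.32e-13) had 0, 0.123 and 1.07 CPM in late summer libraries against 0, 0.809 and 31.9 CPM in early summer libraries. Dapma7bEVm018652 (-2.66, SE 0.310) was seen at all 9 points, from -1.26 at TBNS2 inflow to -3.77 at TBNS2 outfall.

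**Figure D4:**
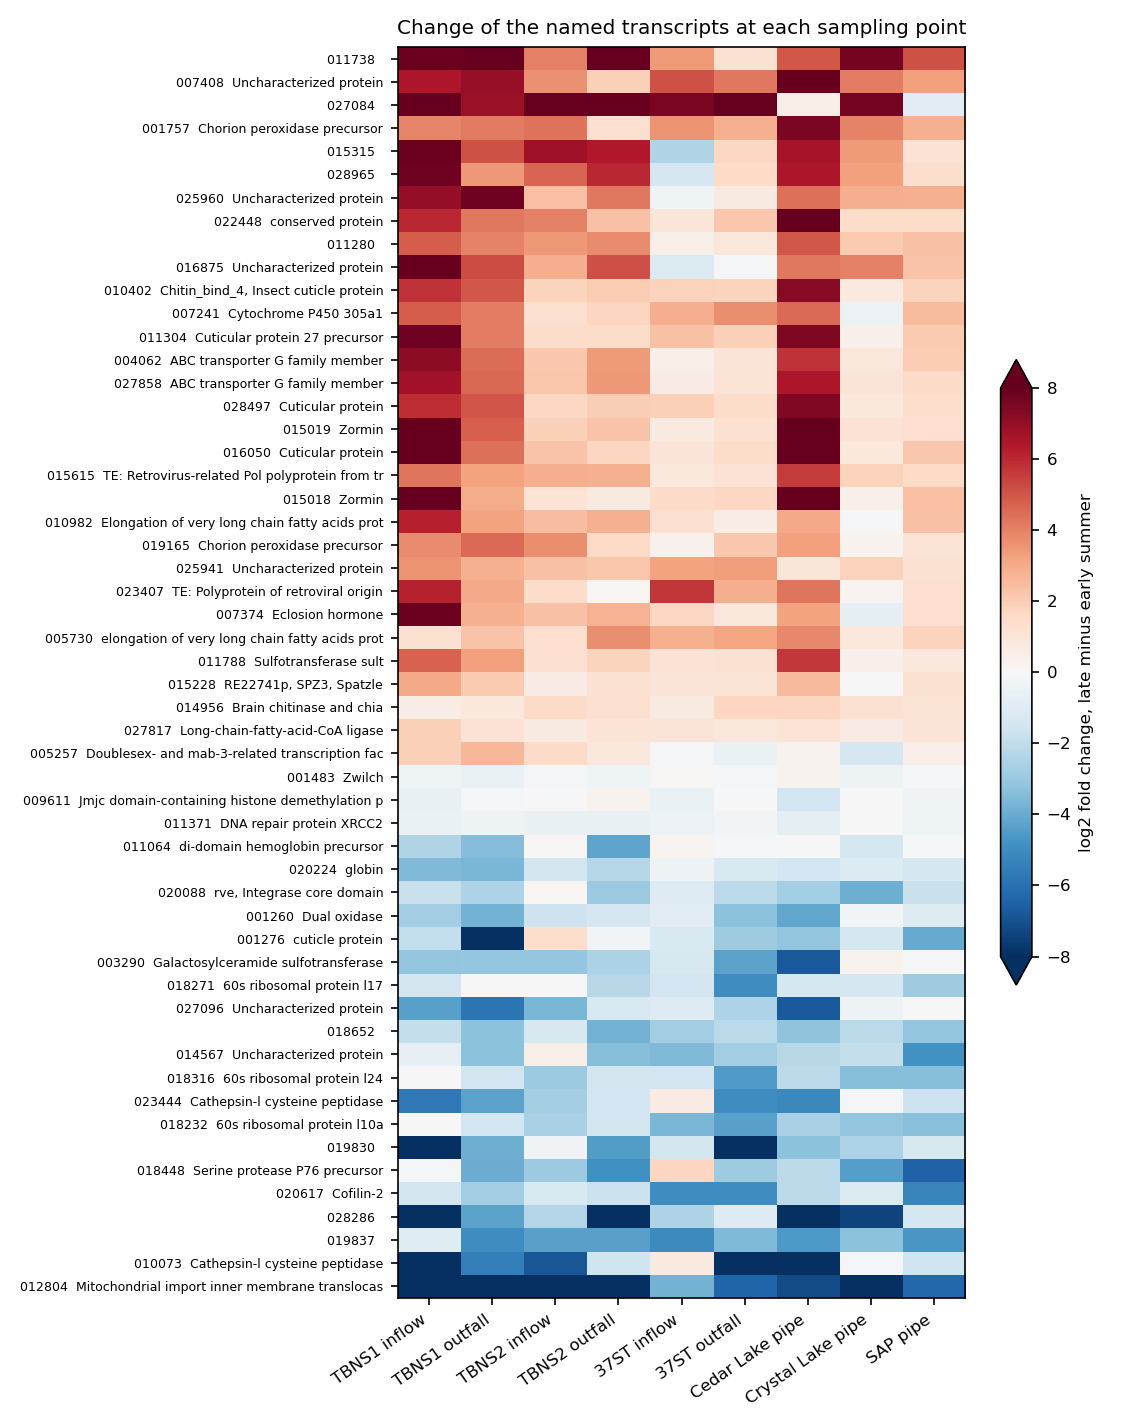
Log2 fold change, late minus early summer (color), of the 54 named transcripts (rows, ordered by overall fold change, with the digits of the identifier) at the 9 sampling points (columns); colors stop at 8 and -8. Rises are darkest at TBNS1 inflow and Cedar Lake and palest at Crystal Lake and 37ST inflow, and Tim10 in the lowest row is lower at all 9 points.

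To count each water once, an exact 2-sided permutation test compared the 9 point-wise differences of mean log2(CPM + 1) over all sign patterns, for which the smallest possible p is 0.00391. The test takes the 9 points as independent, although the inflow and the outfall of one filter have similar source water. Its p-values can therefore be too small. Of the 54 named transcripts, 50 had an exact p under 0.05 before and after Benjamini-Hochberg adjustment, and 33 had the smallest p, their difference having 1 sign at all 9 points. As most of them were chosen because they were seen at most points, this count describes their spread over points.

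Long-chain-fatty-acid-CoA ligase (Dapma7bEVm027817), which activates fatty acids, and Zwilch (Dapma7bEVm001483), a protein of the kinetochore checkpoint, are members of the season model of the study that it also discusses one by one. The ligase had 45.2, 140.7 and 236 CPM in late summer libraries and 17.4, 53.3 and 136.5 CPM in early summer libraries, and 28 of 50 late summer libraries lay above every early summer library. It rose by 1.07 (SE 0.0975, adjusted p = 4.04e-15), at every point, from 0.67 at Crystal Lake to 1.92 at TBNS1 inflow (exact p = 0.00391). This was a small change with little spread: at TBNS1 inflow the pools had 63.8, 121.4, 153.4, 202 and 236 CPM in late summer and 31.4, 33.95, 35.8, 38.5 and 39.9 CPM in early summer. The ligase changed by nearly as much in laboratory controls, by 0.96 (SE 0.215, adjusted p = 0.0803, edgeR quasi-likelihood test). Its control medians were 141.4 CPM in late summer and 68.8 CPM in early summer, and the stormwater change minus the control change was 0.09. Zwilch had 3.18, 8.87 and 12.7 CPM in late summer libraries and 4.62, 8.40 and 12.2 CPM in early summer libraries, almost the same ranges. Its change was -0.18 (SE 0.0715, adjusted p = 0.0314), with an exact p over points of 0.82. The mean difference over points in that exact test was 0.02, of the other sign, with 5 of 9 points higher. The study's season model was built on these libraries and so is not independent evidence. Of its 56 tested transcripts, 1 was a higher DEG (1.79%) and 3 were lower DEGs (5.36%), beside 0.806% and 0.707% of all transcripts. At any fold 20 passed higher and 21 lower, beside 24.8% and 19.9% of all transcripts. The doublesex- and mab-3-related transcript Dapma7bEVm005257, of a family that directs sexual development, had medians of 18.2 CPM in late summer and 11.3 CPM in early summer, a change of 0.64 (SE 0.210, adjusted p = 0.0095) and an exact p of 0.0586. It was higher at 6 of 9 points, with 2.67 at TBNS1 outfall and -1.34 at Crystal Lake.

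The laboratory controls, which saw no stormwater, behaved differently for the 2 sets. Late minus early summer controls gave 53 DEGs of 25329 (0.209%), 9 higher (0.0355%) and 44 lower (0.174%). With only the first or only the second set of late summer controls the edgeR quasi-likelihood test gave 0. With both sets 2954 transcripts (11.7%) had an unadjusted p under 0.05 in that test. The whole higher set (83 transcripts seen at 7 points, 63 at 8 and 13 at 9) was in the fit of the controls. Of these, 86 were higher in late summer controls too, 44 of them by over 1 on the log2 scale. In the controls 1 was a DEG, and the median log2 fold change of the set was 0.07, against 2.41 in stormwater. The median over all transcripts tested in the controls was 0.02. Of the 80 transcripts of the lower set, 78 were in the fit of the controls. There 73 were lower in late summer, 65 of them by over 1 on the log2 scale. In the controls 18 of the lower set were DEGs, with a median of -2.86 for the set, against -2.53 in stormwater. The lower set was thus low in late summer libraries with and without stormwater, whereas the controls of both seasons stood high for the higher set (1.5, 3.63 and 4.66 in late summer and 2.99, 3.37, 3.73, 3.83 and 4.20 in early summer, as mean log2(CPM + 1)).

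**Figure D5:**
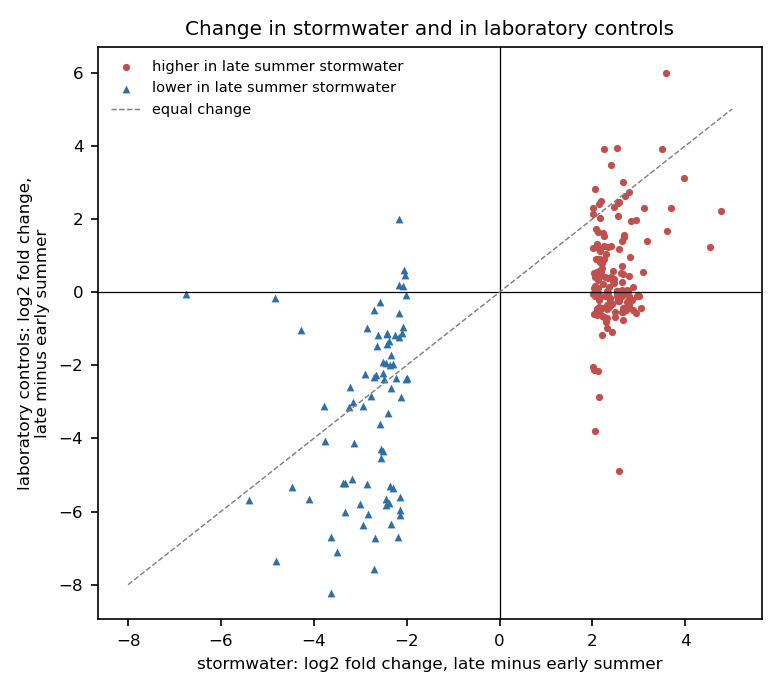
Log2 fold change, late minus early summer, of the transcripts seen at most points in stormwater (horizontal axis) and in laboratory controls (vertical axis), with circles for the higher and triangles for the lower set and a dashed line of equal change. The higher set lies on both sides of 0 in the controls (median 0.07), and 73 of 78 lower transcripts are below 0 there too.

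Single transcripts showed the same contrast, but not all transcripts of the higher set did. The unnamed Dapma7bEVm027084 changed by 3.13 in the controls, cytochrome P450 305a1 (Dapma7bEVm007241) by 2.75 and chorion peroxidase Dapma7bEVm001757 by 2.31. None of these was a DEG in the controls. Other transcripts of the higher set changed little there. Zormin Dapma7bEVm015019 had 5.39 to 1693 CPM (median 1030) in late summer controls and 323, 1124, 1156, 1460 and 1582 CPM in early summer controls, a change of -0.56 (adjusted p = 0.802). The cuticle protein Dapma7bEVm010402 had medians of 180 and 281 CPM in late and early summer controls. Cofilin-2 (Dapma7bEVm020617) was at 0 in 9 of 10 late summer controls and 1 of 5 early summer controls, a change of -7.12 (adjusted p = 0.00429). The ribosomal L10a, L24 and L17 transcripts were at 0 in all 10 late summer controls and in 1 of the 5 early summer controls each. Tim10 (Dapma7bEVm012804) was an exception in the lower set, at 0 in 9 of 10 late summer controls and in 4 of 5 early summer controls.

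The difference between the changes was itself tested, as an interaction between season and stormwater. It was called for 245 of 26198 transcripts (0.935%), 191 (0.729%) with a more positive change in stormwater and 54 (0.206%) with a more negative one. Of the higher set 41 were among the 191 and of the lower set 1 was among the 54, though these sets were chosen on the stormwater libraries that enter the test. Named transcripts with an interaction adjusted p under 0.05 included Zormin (Dapma7bEVm015019, 3.92, adjusted p = 0.0341), a cuticular protein (Dapma7bEVm016050, 4.07, adjusted p = 0.0234), the ABC transporters Dapma7bEVm004062 and Dapma7bEVm027858 (3.03 each, adjusted p = 0.0448 and 0.0391), the Spatzle-named transcript (1.63, adjusted p = 0.0422) and Tim10 (-7.36, adjusted p = 0.0464). In DESeq2 the difference for Tim10 did not pass (adjusted p = 0.077), and the others named here did. With the first late summer sets alone only 8 and 4 transcripts were called and none of these named ones passed, though their differences stayed near the same size (Zormin 3.85, the cuticular protein 3.95, the ABC transporters 3.01 and 3.03, the Spatzle-named transcript 1.67), except Tim10 at -4.3. The second sets alone were not fitted.

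The kind of sampling point made little measured difference to the season change. No transcript was called for a different season change at filter outfalls than at inflows in the edgeR quasi-likelihood test (0%, lowest adjusted p 0.488). In that test 1476 transcripts (5.64%) had an unadjusted p under 0.05. For pipe outflows against filter inflows 7 were called (0.0268%), all with a more negative change at the pipes, among them a double oxidase with peroxidase domains (Dapma7bEVm023994, -5.28, adjusted p = 0.0141) and deoxyribonuclease I (Dapma7bEVm009914, -2.14, adjusted p = 0.0458). Fits without single replicate numbers gave 0 to 4 calls.

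Over all tested transcripts, the season took 12.9% of the variance of log2(CPM + 1), the sampling point 13.1%, their combination 8.47%, and 65.5% lay between pools of the same water and season. On the first principal component (34.6% of variance) the median was 20.1 in late summer libraries, which ran from -79.3 to 139.6, and -56.3 in early summer libraries, which began at -104.7. The seasons were shifted and overlapped over most of the axis.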

How the data were processed

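RNA of whole neonates was sequenced from strand-specific libraries in 94 stormwater libraries, 50 of late and 44 of early summer, and in 15 laboratory controls. The authors checked reads with FastQC, trimmed them with Trimmomatic and estimated counts per *D. magna* reference transcript by Kallisto, and these estimated counts were deposited without normalization; their processing notes also name DESeq and DESeq2, and no versions are given in the sources used here. Kallisto divides reads that match several transcripts.

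Counts were rounded (31.4% were not whole). Transcripts without variance in the wetland or the stormwater experiment were left out, as in the study, leaving 26253 of 29127, of which 26168 were tested. Of the deposited columns 1, of a wetland library, was not used, which could alter only this filter. Groups come from the labels. Fits used edgeR 4.0.16 (TMM, quasi-likelihood test, Benjamini-Hochberg) in R 4.3.3. Tested on simulated data for this comparison, the fit recovered 198 of 200 transcripts changed by 3 on the log2 scale among 26044, with 13 false calls. The changed transcripts averaged at least 1 CPM and the simulated libraries were independent. The simulation thus does not cover transcripts of lower level or libraries that share a water. The median change of the DEGs was smaller, at 2.36 for higher and -2.42 for lower ones. Values of single points are contrasts of one fit with 18 point and season groups. All 216 replicate pairs differed beyond sampling noise.

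Named transcripts were the 10 largest rises and 10 largest falls seen at most points with a mean of at least 1 CPM, up to 4 DEGs per list and direction seen at most points, otherwise the list member with the lowest adjusted p, and the study's transcripts of interest; further list members named in the text were chosen after their values were seen. The 15 lists match words in the study's 1993 transcript names, without their values. The transcripts, lists and tests were chosen with earlier results of these data known. Alternatives were DESeq2 1.42.0, median-ratio size factors, filterByExpr, counts summed per point and season, no covariate, a replicate block, other thresholds, and each replicate number, point or second set left out. Robust dispersions were added after seeing the data.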

Additional observations from a re-analysis of the deposited data

Results flagged for a closer look

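Groups of 4 to 10 libraries were examined by Dixon's criterion for total count, the levels of the higher and the lower set, the first principal component and 3 transcripts. For normally distributed values, chance sets 1 library apart in about 1 in 20 groups. The CPM of single transcripts were far more skewed, so that rate does not apply to them. In 20 groups (14.5%) 1 library stood apart from the rest of its group. For the total count these were late summer replicate 5 at 37ST outfall (11209805 counts), late summer replicate 1 at Crystal Lake (11044217), early summer replicate 1 at TBNS1 outfall (9745377) and early summer replicate 5 at TBNS2 outfall (12236199). For the mean log2(CPM + 1) of the lower set they were late summer replicate 5 at Crystal Lake (1.35), early summer replicate 4 at 37ST outfall (1.14) and early summer replicate 3 at Cedar Lake (2.22).

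Most of the others were single pools with a high level of the cathepsin-L peptidase Dapma7bEVm010073. In late summer these were a pool with 220 CPM at 37ST inflow, where the next highest had 8.14 CPM, 125.04 CPM at Crystal Lake (next 0.310), 52.7 CPM at TBNS2 outfall (next 0.274), 9.93 CPM at TBNS1 outfall (next 0.235), 1.81 CPM at TBNS1 inflow (next 0.184) and 11.6 CPM in the laboratory controls (next 1.12). In early summer they were 85.5 CPM at 37ST inflow, 47.7 CPM at TBNS2 inflow and 151.1 CPM at SAP. Zormin Dapma7bEVm015019 stood apart in early summer pools with 3.601 CPM at TBNS1 inflow, 376 CPM at TBNS2 inflow and 418 CPM at TBNS2 outfall, and the cuticle protein Dapma7bEVm010402 in 1 early summer pool with 320 CPM at 37ST outfall, where the next had 39 CPM.

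For 10 named transcripts the season change in stormwater differed from that in laboratory controls with an adjusted p under 0.05 in the edgeR quasi-likelihood test of the interaction. On the log2 scale the difference was 4.07 for the cuticular protein Dapma7bEVm016050, 3.92 for Zormin Dapma7bEVm015019, 3.81 for Dapma7bEVm022448, 3.59 for Dapma7bEVm016875, 3.13 for Dapma7bEVm027084, 3.10 for Dapma7bEVm011280, 3.03 for each of the ABC transporters Dapma7bEVm004062 and Dapma7bEVm027858, 1.63 for the Spatzle-named Dapma7bEVm015228 and -7.36 for Tim10 (Dapma7bEVm012804). None of the 10 had an adjusted p under 0.05 with the first late summer sets alone, where the difference for Tim10 was -4.3 and the others were near the size above (3.58 for Dapma7bEVm022448, 3.74 for Dapma7bEVm016875, 3.12 for Dapma7bEVm011280). In DESeq2 the difference passed for all of them but Tim10 (adjusted p = 0.077).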

How the results depend on the processing

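All shares here are percentages of the 26168 transcripts tested as reported, where 0.806% were higher and 0.707% lower, and 0.608% and 0.306% at most points. filterByExpr (16364 tested) left 0.359% lower and 0.0917% lower at most points, 94 and 24 transcripts. Replicate numbers did not pair the libraries (of 49 same-numbered pairs 22 correlated over 0.1, with a median r of -0.00902), and the replicate block gave 0.986% higher and 2.12% lower (258 and 556 transcripts), 0.634% and 0.493% at most points, and 8 and 28 transcripts in the controls. A fold change limit of 1 gave 6.11% higher and 3.63% lower, 1.44% and 0.791% at most points. Asking for 5 points gave 0.68% lower, for all 9 points 0.0497% higher and 0.0611% lower (13 and 16 transcripts), and for the same sign only 0.608% lower. DESeq2 gave 0.871% higher and 0.581% lower (0.657% and 0.245% at most points), and counts summed per point and season 0.822% and 0.619% (0.642% and 0.325%).

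Leaving out a replicate number gave 0.768% to 0.955% higher and 0.497% to 1.47% lower, and at most points 0.543% to 0.722% and 0.187% to 1.03%, with the lowest, 49 transcripts, without replicate 2 and the highest, 269, without replicate 5. Without replicate 4, 352 transcripts were lower. Leaving out a sampling point gave 0.569% to 1.1% higher and 0.512% to 0.963% lower, and, at 6 or more of the remaining 8 points, 0.501% to 0.883% and 0.29% to 0.661%. The lower share at most points was 0.661% without Crystal Lake, 0.611% without 37ST inflow and 0.589% without SAP.

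Separate fits of each point gave 0 DEGs at 37ST inflow, 37ST outfall and SAP, 763 at TBNS1 outfall, 226 at TBNS2 inflow and 56 at TBNS2 outfall. Without single replicates the counts ranged over 0 to 5 at 37ST inflow, 5 to 32 at 37ST outfall, 308 to 1440 at TBNS1 inflow, 801 to 1407 at TBNS1 outfall, 22 to 53 at TBNS2 inflow, 61 to 1067 at TBNS2 outfall, 97 to 409 at Cedar Lake, 14 to 22 at Crystal Lake and 7 to 233 at SAP. The controls gave 1 to 11 higher and 2 to 43 lower, and 0 and 0 with either late summer set alone. Of 26198 transcripts the stormwater interaction was called for 0.0305% and 0.0153% (8 and 4) with first sets only and for 1.15% and 0.416% in DESeq2, and the pipe interaction gave 0 to 4 calls without single replicates. At any fold the lists together held 80 higher and 163 lower members, beside 24.8% and 19.9% of all transcripts. The cause of these shifts was not tested. Fewer transcripts tested or fewer libraries are part of the filtered and left-out fits by construction.

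No named transcript changed direction in an alternative fit where it had a value. Of their alternative values 1140 stayed on the same side of an adjusted p of 0.05, 28 lost it and 2, both of the histone demethylase Dapma7bEVm009611, gained it. Those that lost it were the cuticle protein Dapma7bEVm001276, L17, both Zormin transcripts, Zwilch, the doublesex-related transcript and di-domain hemoglobin. With the fold change limit as well, of the 45 named DEGs 34 were still called without the covariate, 38 without Cedar Lake, 40 without replicate 2, replicate 3 or either TBNS1 point, and 30 under filterByExpr, where 15 of the 54 named transcripts were not tested. Depth limits the lower set most, as 49 of its 80 members averaged under 1 CPM.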

Other observations

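Transport proteins outside the lists were also among the transcripts higher at most points. A neurotransmitter transporter-like transcript (Dapma7bEVm018380) rose by 2.48 on the log2 scale (SE 0.399, adjusted p = 2.53e-07, edgeR quasi-likelihood test) at all 9 points, with a mean of 0.451 CPM. A sugar transporter (Dapma7bEVm015444) rose by 2.32 (SE 0.391) and a solute carrier family 22 member (Dapma7bEVm010356), of a family of organic ion carriers, by 2.02 (SE 0.375). The solute carrier changed by 2.14 in the laboratory controls and the sugar transporter by 0.39. Carbonic anhydrase (Dapma7bEVm027279), which interconverts carbon dioxide and bicarbonate, rose by 2.45 (SE 0.500, adjusted p = 3.07e-05) and a carbonic anhydrase-related protein (Dapma7bEVm011147) by 2.36 (SE 0.379, adjusted p = 2.52e-07), with changes of 0.34 and 0.15 in the controls. These transcripts were picked after their values were seen.

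Among the lower transcripts, 2 more at very low level followed cofilin-2 and the ribosomal transcripts. The receptor for activated protein kinase C, RACK1 (Dapma7bEVm020050), a protein bound to the small ribosomal subunit, averaged 0.0293 CPM and had a fitted change of -2.37 (SE 0.349, adjusted p = 5.89e-08) in stormwater and -5.77 in controls. A coactosin-like actin-binding protein (Dapma7bEVm020663) averaged 0.0634 CPM, with -3.33 (SE 0.373) in stormwater and -6.02 in controls.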
